A study of Sus scrofa with 9 samples.

Results

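Autophagy machinery genes encode the proteins with which a cell wraps part of its own cytoplasm in a membrane and delivers it to the lysosome. The set held every gene of the deposited pig table whose symbol begins with ATG and a digit, GABARAP or MAP1LC3, the kinases ULK1 to ULK4, WIPI1 and WIPI2, and BECN1, PIK3C3, PIK3R4, RB1CC1, AMBRA1, SQSTM1, OPTN, NBR1, UVRAG and TAX1BP1. It came to 39 of the 22342 genes in the table, and all 39 passed the filter on low counts that 16802 genes passed. MAP1LC3C was not analysed here. RNA had been sequenced from pig testis cells labelled as spermatogonia (SPG), the mitotic germ cells, spermatocytes (SPY), the cells in meiosis, and round spermatids (RS), the haploid cells that follow. There were 9 libraries, 3 per stage, numbered 1, 2 and 3 for spermatogonia and round spermatids and 2, 3 and 4 for spermatocytes. The study's stated aim was to relate changes of expression to chromatin structure during sperm formation, and the labels give no breed, age, animal or treatment. The table heads the spermatogonia columns c-kit, after the KIT receptor, and the spermatocyte columns Pachy, read here as pachytene. The labels do not state this match, which was made from what the headings mean and from shared numbers.

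Autophagy starts when the ULK kinase complex, built on the scaffold RB1CC1, is released from inhibition by the nutrient sensor mTORC1. The BECN1 and PIK3C3 complex then marks a membrane with phosphatidylinositol 3-phosphate, ATG9A vesicles and ATG2 proteins supply lipid, and a ubiquitin-like conjugation system attaches LC3 and GABARAP proteins to the growing membrane. Cargo receptors such as SQSTM1 and OPTN bind ubiquitin with one domain and LC3 or GABARAP with another. In the testis the pathway is known for its part in acrosome formation, where mouse germ cells that lack ATG7 form defective acrosomes, and in the steroid-producing Leydig cells.

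Levels below are CPM (counts scaled to library size) with TMM library factors, and the values of single libraries always follow the order of their numbers. Log2 fold changes come from the edgeR quasi-likelihood test with Benjamini-Hochberg adjustment over all 16802 genes, are given ± their standard error, and a gene counts as called, and is said to rise or fall, at an adjusted p below 0.05. A level of a stage is the mean ± SD of n = 3 libraries. Library totals ran from 47963279 to 64639201 estimated counts, and the TMM factors from 0.774 to 1.26. The labels do not say which libraries came from separate animals, so a p-value measures only how far these libraries differ, and that spread may be technical. In bulk RNA, fewer cells of a type and less RNA per cell cannot be told apart.

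The libraries carried transcripts of other cells, and 1 library stood apart. UCHL1, a marker of spermatogonia, was at 26.1 ± 1.36 CPM in spermatogonia against 1.72 ± 0.679 and 1.90 ± 0.686 in the later stages, while KIT was at 6.36 ± 0.165, 7.47 ± 0.747 and 24.6 ± 1.54 CPM, highest in round spermatids. SYCP1, a protein of the synaptonemal complex, was at 29.3 ± 0.590, 166 ± 58.0 and 47.5 ± 19.8 CPM in the same order, and PRM1, a protamine of late spermatids, at 746 ± 9.67, 518 ± 275 and 3086 ± 708 CPM. Other stage markers went against the labels. ACRV1, an acrosomal protein of round spermatids, was highest in spermatogonia at 119 ± 2.74 CPM, against 39.5 ± 20.1 in spermatocytes and 52.7 ± 16.3 in round spermatids. DMC1, the meiotic recombinase, was at 39.1 ± 1.21 CPM in spermatogonia and 25.7 ± 10.4 in spermatocytes, and ZBTB16, a marker of undifferentiated spermatogonia, at 3.74 ± 0.350 in spermatogonia and 4.32 ± 0.143 in round spermatids. Summed Sertoli cell markers (10 genes) ran from 250.3 to 258 CPM in spermatogonia, 36.5 to 56.4 in spermatocytes and 1100.1 to 1188 in round spermatids, with AMH at 0 in every spermatocyte library. Summed Leydig cell markers (5 genes) ran from 295 to 313 CPM, 1.79 to 2.78 and 15.8 to 20.02. Summed markers of myoid cells, the smooth muscle cells around the tubules (6 genes), ran from 18.4 to 19.2 CPM, 9.58 to 22.3 and 4808 to 6122, those of endothelial cells (4 genes) from 9.19 to 10.7, 4.58 to 16.8 and 166 to 189.6, and those of leukocytes (7 genes) from 1.55 to 1.87, 1.16 to 2.81 and 27.5 to 35.3. Round spermatids 2 was the outermost of its stage for 34 of the 39 autophagy genes, highest for 22 and lowest for 12. Each of 3 like libraries would be highest or lowest for most genes, so that count alone is a weak sign. Its median absolute log2 difference from the mean of replicates 1 and 3 was 0.25, against 0.083 between replicates 1 and 3. Spermatogonia libraries lay closer together than any others, with a median coefficient of variation of 1.86% over the autophagy genes against 12.02% in spermatocytes and 11.2% in round spermatids. Their median chi-square per gene between libraries was 0.794 to 0.846, against 3.96 to 8.06 between spermatocyte libraries, 2.23 between round spermatids 1 and 3, and 19.1 and 20.5 between each of these and round spermatids 2. Counting error alone gives 0.455. The spermatogonia libraries may be repeat preparations of 1 source, which the labels do not say. They were treated as 3 samples, and summed to 1 as an alternative.

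**Figure D1:**
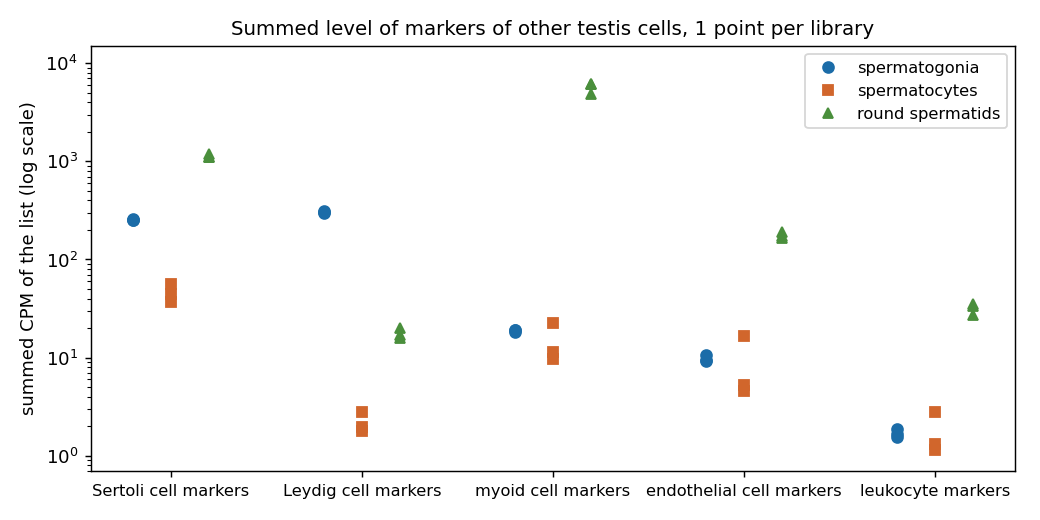
Summed CPM (log axis) of marker lists of 5 other testis cell types, 1 point per library, with colour and shape for the stage. Round spermatid libraries hold the highest sums for Sertoli (1100.1 to 1188 CPM), myoid (4808 to 6122), endothelial and leukocyte markers, and spermatogonia libraries the highest for Leydig markers (295 to 313).

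Between spermatogonia and spermatocytes the set split rather than moving one way. The cargo receptors TAX1BP1 and OPTN, the scaffold RB1CC1, the protease ATG4C and the conjugation genes ATG12 and ATG3 rose, while MAP1LC3A, GABARAPL1, the proteases ATG4B and ATG4D, the kinases ULK1 and ULK3, the HORMA-domain subunit ATG101, WIPI2, ATG9A and ATG2A fell. Of the 39 genes, 10 were called higher (25.6%) and 20 lower (51.3%), where 29.3% of all genes tested were called higher and 44% lower, so these shares lay near the background. The median log2 fold change was -0.41 for the 39 genes and -0.32 for all genes tested. Log2 fold changes ran from -1.84 to 2.03, with 7 called rises (17.9%) and 11 called falls (28.2%) over 2-fold, against 17.3% and 30.9% of all genes tested. Under all 19 other settings of the analysis 7 of the rises held (TAX1BP1, RB1CC1, ATG4C, OPTN, ATG12, ATG3 and UVRAG) and 12 of the falls did. With no filter 12 genes were called lower and 12 higher, and without the 50 most abundant genes 12 lower and 13 higher. Without normalization factors 26 were called lower and 8 higher, and on both TPM scales 26 lower and 7 higher. The median over all genes ran from -0.74 to -0.09 over the settings. Leydig (5 of 5) and Sertoli markers (8 of 10) fell in the same comparison, and their part in these changes was not tested.

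From spermatocytes to round spermatids GABARAPL1, MAP1LC3A, ATG4A, ATG101, SQSTM1, ULK1 and ATG16L2 rose, and TAX1BP1, RB1CC1, OPTN, ATG4C, ATG12, BECN1, ULK2 and ULK4 fell. Here 11 genes were called higher (28.2%) and 19 lower (48.7%), against 42.7% and 36.4% of all genes tested. The median was -0.32 for the 39 genes and 0.19 for all genes, and the changes ran from -1.89 to 3.02, with 7 called rises (17.9%) and 12 called falls (30.8%) over 2-fold, against 35.4% and 24.7% of all genes tested. Without round spermatids 2 the counts were 10 and 21. Without normalization factors they were 16 and 13, and the median over all genes stood at 0.64. Calls held under all 19 other settings for 8 rises and 13 falls. All 10 Sertoli, 6 myoid and 4 endothelial markers and 6 of 6 leukocyte markers tested rose in the same comparison, and their part in these changes was not tested.

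Round spermatids against spermatogonia gave 9 genes higher (23.1%) and 18 lower (46.2%), against 39.5% and 39.7% of all genes tested. ULK2, ATG2A, ATG9A, ATG4B and ULK4 fell most, and GABARAPL1, ATG4A, SQSTM1, MAP1LC3B and MAP1LC3A rose most. The median was -0.17 for the 39 genes and 0.00 for all genes, and 2 called rises (5.13%) and 13 called falls (33.3%) were over 2-fold, against 30.9% and 26.7% of all genes tested. Of the falls, 16 held under all 19 other settings, and of the rises only those of GABARAPL1 and ATG4A did. On the deposited TPM values, which carry no TMM factor, 2 genes were called higher and 26 lower with a pseudocount of 1. With a pseudocount of 0.1 the counts were 2 and 25. Summed TPM over the genes of the table also differed, from 966231 to 966586 in spermatogonia against 882081, 923269 and 884194 in round spermatids. The part of this in the TPM counts was not tested. Sertoli (9 of 10), myoid (6 of 6), endothelial (4 of 4) and leukocyte markers (6 of 6) rose in this comparison and all 5 Leydig markers fell, and their part was not tested. Each stage enters a pair of comparisons, so the 3 sets of calls are not independent.

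**Figure D2:**
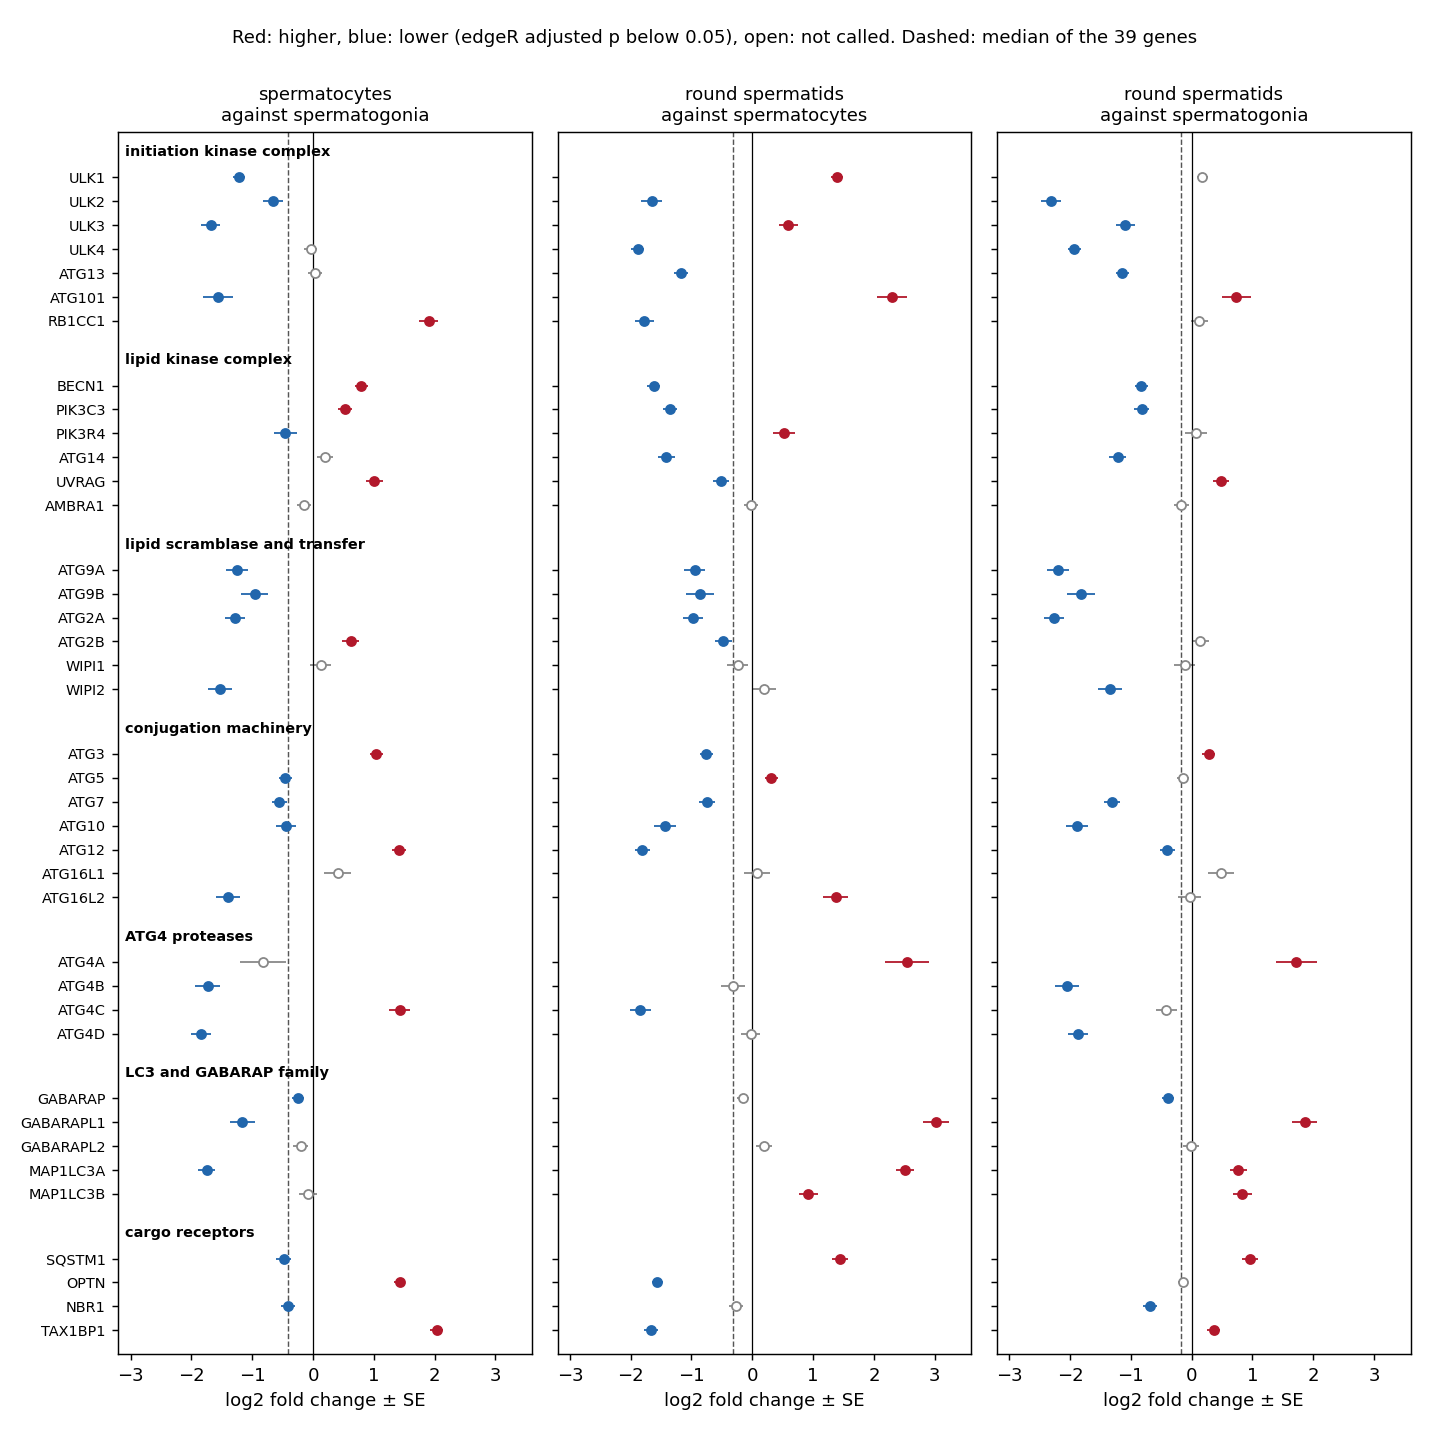
Log2 fold change ± SE of each of the 39 genes, ordered by role, in the 3 comparisons. Filled red points are called higher, filled blue points called lower and open points not called by edgeR, and the dashed line marks the median of the 39 genes. TAX1BP1 (2.03) has the largest rise in the first panel and GABARAPL1 (3.02) in the second.

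By stage, 12 genes were called higher in spermatogonia than in both other stages (ATG2A, ATG4B, ATG4D, ATG7, ATG9A, ATG9B, ATG10, GABARAP, NBR1, ULK2, ULK3 and WIPI2). Spermatocytes held 10 such genes (ATG2B, ATG3, ATG4C, ATG12, BECN1, OPTN, PIK3C3, RB1CC1, TAX1BP1 and UVRAG), and round spermatids 6 (ATG4A, ATG101, GABARAPL1, MAP1LC3A, MAP1LC3B and SQSTM1). These are 30.8, 25.6 and 15.4% of the set, and 21.5, 19.5 and 30.1% of all genes tested were called highest in the same stages. A lowest stage called below both others was spermatogonia for 3 genes (7.69%, against 13.2% of all genes tested), spermatocytes for 9 (23.1%, against 26.2%) and round spermatids for 12 (30.8%, against 26%). In all, 17 genes (43.6%) were called in 3 comparisons, 18 (46.2%) in 2, and 4 (AMBRA1, ATG16L1, GABARAPL2 and WIPI1; 10.3%) in none, against 45.7, 45.1 and 4.75% of all genes tested. Each of these 4 was called in at least 1 comparison under another setting. Of the 9, 9 and 12 genes not called in the 3 comparisons, 9, 8 and 10 were called under at least 1 of the 19 other settings. The summed level of the set was 5003 to 5098 CPM in spermatogonia, 6061 to 6876 in spermatocytes and 3186 to 3392 in round spermatids. As a share of raw counts, without TMM factors, it was 0.546 to 0.557%, 0.5 to 0.535% and 0.337 to 0.427%, so spermatocytes are highest only on the scaled values. On TPM, which allows genes to be compared per length, the most abundant members were GABARAP (705 ± 9.06) and ATG9A (618 ± 12.8) in spermatogonia, TAX1BP1 (806 ± 56.9) and RB1CC1 (587 ± 83.7) in spermatocytes, and GABARAP (362 ± 120.5), TAX1BP1 (239 ± 42.1) and SQSTM1 (238 ± 115) in round spermatids. All 39 genes had a location on Sscrofa11.1, and 13 of them overlapped another annotated gene, so that their counts are less certain. These were AMBRA1, ATG3, ATG4A, ATG4B, ATG4C, ATG4D, ATG5, ATG7, ATG12, NBR1, SQSTM1, ULK4 and WIPI1. No source used here says if counting was stranded, and reads of such a pair may be mixed.

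**Figure D3:**
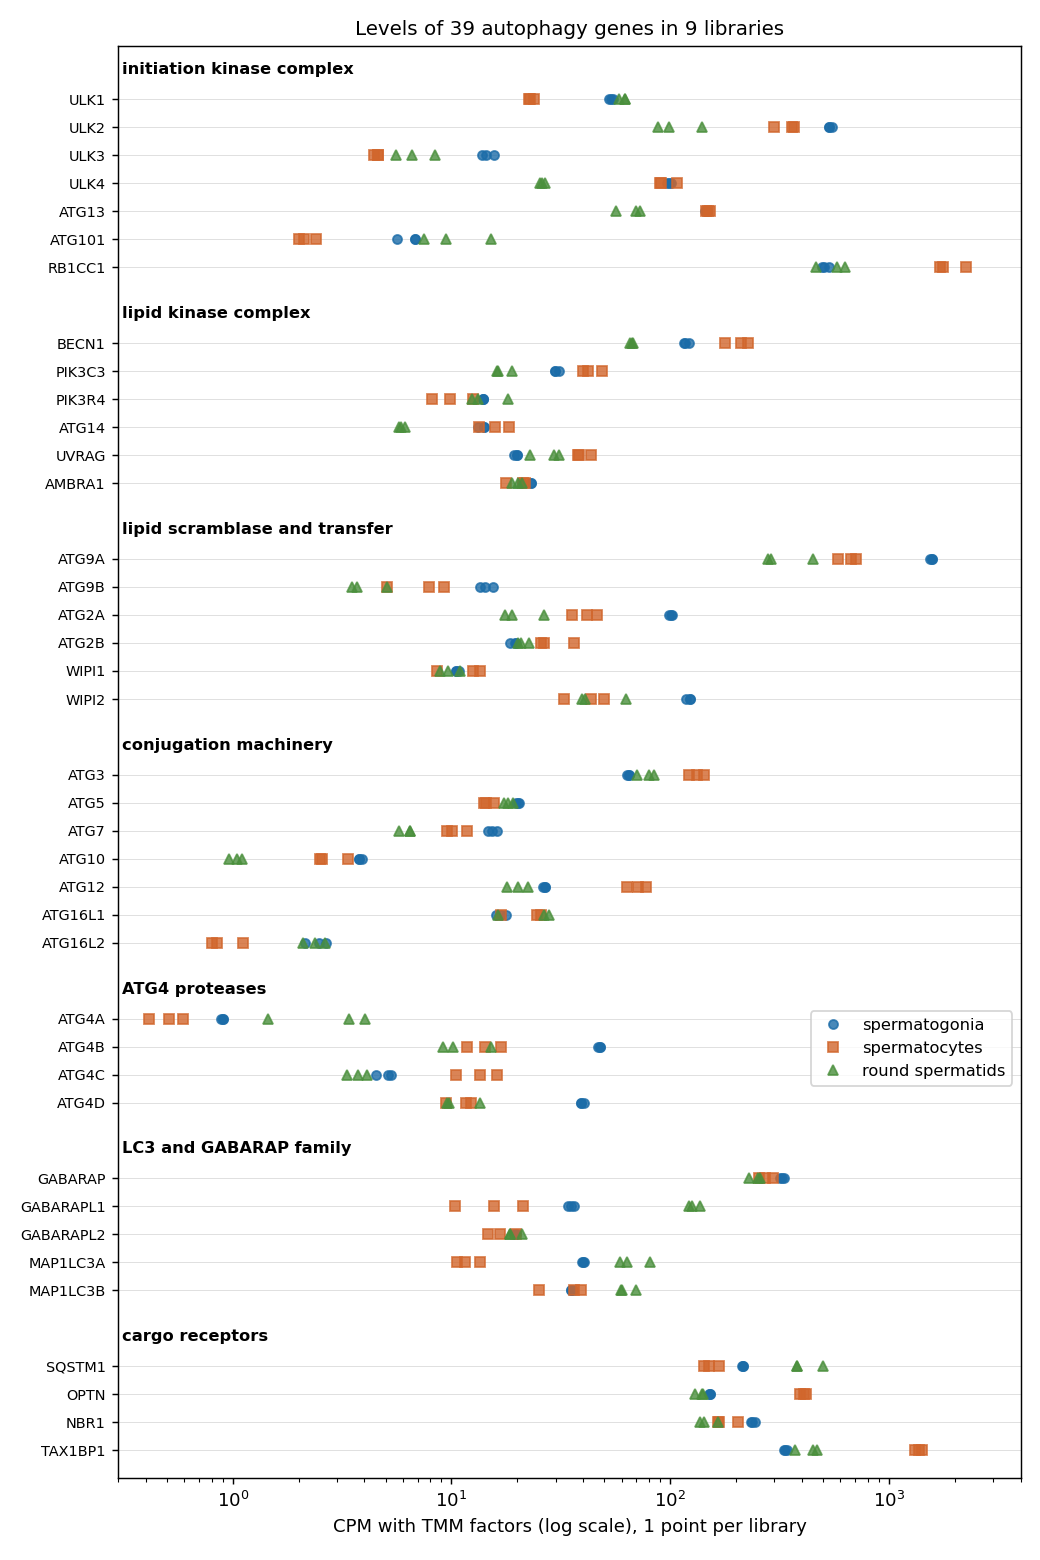
CPM (log axis) of the 39 genes in all 9 libraries, ordered by role, 1 point per library with colour and shape for the stage. Levels span from 0.41 CPM for ATG4A in spermatocytes 3 to 2246 CPM for RB1CC1 in the same library.

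In the initiation complex, RB1CC1 and the kinases followed different courses. RB1CC1 (FIP200, chr4:77593204-77649551 on Sscrofa11.1), the scaffold on which the complex assembles, stood at 497, 534 and 503 CPM in spermatogonia, 1711, 2246 and 1775 in spermatocytes, and 582, 463 and 631 in round spermatids. Every spermatocyte library lay above all libraries of the other stages, which overlapped each other. RB1CC1 rose 3.74-fold into spermatocytes (log2 fold change 1.90 ± 0.151, adjusted p = 2.64e-06) and fell 3.42-fold into round spermatids (log2 fold change -1.77 ± 0.1499, adjusted p = 1.27e-06), and round spermatids against spermatogonia was not called (log2 fold change 0.13 ± 0.146, adjusted p = 0.434). On TPM that last difference turned to -0.49 with a pseudocount of 1 and -0.50 with 0.1, and both were called. ULK2, a kinase that starts autophagosome formation, ran at 535, 547 and 535 CPM in spermatogonia, 299, 359 and 368 in spermatocytes, and 87.7, 139 and 98.8 in round spermatids. Its level fell in both steps without overlap, by 0.66 and then by 1.65 on the log2 scale, and to 4.96-fold lower in round spermatids than in spermatogonia (log2 fold change -2.31 ± 0.172, adjusted p = 6.55e-07). ULK2's first step missed the threshold with no filter and without the 50 most abundant genes, with an adjusted p from 0.000144 to 0.0611 over all settings. ULK1, its close relative, was at 52.7, 54.9 and 53.6 CPM in spermatogonia, 22.9, 22.6 and 23.9 in spermatocytes, and 58.1, 61.9 and 62.1 in round spermatids. Spermatocytes were the low stage, with a fall (log2 fold change -1.22 ± 0.0931, adjusted p = 2.23e-06) and a return (log2 fold change 1.39 ± 0.0935, adjusted p = 2.29e-07) that left round spermatids not called against spermatogonia (log2 fold change 0.18 ± 0.0914, adjusted p = 0.101). Per length, ULK2 was 12.6 to 12.8 times ULK1 in the spermatogonia libraries, 16.4 to 20.1 times in spermatocytes and 1.90 to 2.83 times in round spermatids.

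ULK3, a kinase also known from Hedgehog signalling, stood at 14.3, 13.9 and 15.7 CPM in spermatogonia, 4.63, 4.41 and 4.61 in spermatocytes, and 6.62, 8.42 and 5.58 in round spermatids. It fell into spermatocytes (log2 fold change -1.68 ± 0.162, adjusted p = 8.46e-06) and its later rise (log2 fold change 0.59 ± 0.161, adjusted p = 0.00587) was lost in 4 of the 19 settings, with adjusted p from 0.000893 to 0.201 over all 19. ULK4, a pseudokinase linked to cilia, stood at 96.99, 99.0 and 101 CPM in spermatogonia, 90.3, 108 and 91.0 in spermatocytes, and 25.9, 25.4 and 26.8 in round spermatids. Spermatogonia and spermatocytes overlapped (log2 fold change -0.04 ± 0.101, adjusted p = 0.73), and round spermatids lay below both (log2 fold change -1.89 ± 0.105, adjusted p = 6.3e-08, and log2 fold change -1.93 ± 0.105, adjusted p = 9.2e-08). ULK4 overlaps another gene on the chromosome. ATG101, the partner of ATG13 in the complex, was at 6.82, 5.62 and 6.80 CPM in spermatogonia, 2.39, 2.12 and 2.01 in spermatocytes, and 9.43, 15.1 and 7.50 in round spermatids. All spermatocyte libraries lay below the others, and ATG101 fell 2.95-fold into spermatocytes (log2 fold change -1.56 ± 0.248, adjusted p = 0.000243) and rose 4.91-fold after them (log2 fold change 2.30 ± 0.251, adjusted p = 9.62e-06). The excess of round spermatids over spermatogonia (log2 fold change 0.74 ± 0.234, adjusted p = 0.0142) was not called without spermatogonia 2 (adjusted p = 0.0601) nor in 3 other settings, with a range of adjusted p from 0.00318 to 0.877. ATG13, the adaptor phosphorylated by ULK1, was at 146 ± 1.27 CPM in spermatogonia, 149 ± 3.20 in spermatocytes and 66.4 ± 8.58 in round spermatids. ATG13 was not called between the early stages (log2 fold change 0.03 ± 0.109, adjusted p = 0.807). There it turned to -0.39 without normalization factors and -0.48 on TPM. In 2 settings (only the compared stages, and without the 50 most abundant genes) it was called higher in spermatocytes, and values reached 0.27. ATG13 fell into round spermatids (log2 fold change -1.17 ± 0.111, adjusted p = 3.09e-06).

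The lipid kinase complex, with 6 genes of the set, makes phosphatidylinositol 3-phosphate on the membrane. Into spermatocytes 3 of them rose (50%) and 1 fell (16.7%), against 29.3% and 44% of all genes tested. Into round spermatids 1 rose (16.7%) and 4 fell (66.7%), against 42.7% and 36.4% of all genes tested. BECN1, the regulatory core of the complex, was at 122, 117 and 115 CPM in spermatogonia, 209.9, 228 and 177 in spermatocytes, and 67.5, 66.7 and 65.8 in round spermatids. Spermatocytes lay above the other stages and round spermatids below, with a rise (log2 fold change 0.80 ± 0.109, adjusted p = 8.56e-05) that was not called on TPM and a fall of 3.08-fold (log2 fold change -1.62 ± 0.111, adjusted p = 2.59e-07). The catalytic subunit PIK3C3 (VPS34) showed the same order at 29.7, 29.9 and 31.1 CPM in spermatogonia, 42.2, 49.0 and 39.8 in spermatocytes, and 16.1, 18.9 and 16.3 in round spermatids. PIK3C3's rise (log2 fold change 0.53 ± 0.118, adjusted p = 0.0021) was lost in 4 of the 19 settings, among them both TPM scales, with adjusted p from 3.55e-06 to 0.995, and its fall (log2 fold change -1.35 ± 0.120, adjusted p = 1.8e-06) held in all. PIK3R4 (VPS15), the subunit that anchors PIK3C3, ran at 13.9, 14.0 and 13.9 CPM in spermatogonia, 8.13, 9.89 and 12.5 in spermatocytes, and 13.3, 18.2 and 12.4 in round spermatids. Its spermatocyte libraries lay below all spermatogonia libraries (log2 fold change -0.45 ± 0.186, adjusted p = 0.0484) and overlapped those of round spermatids (log2 fold change 0.52 ± 0.187, adjusted p = 0.0251). Neither PIK3R4 call was firm. The first was lost without any 1 spermatogonia library, without spermatocytes 2 or 3 and without round spermatids 1 (adjusted p 0.00716 to 0.35 over the settings), the second without spermatocytes 2 or 3 or round spermatids 2 (0.00302 to 0.276).

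ATG14 directs the complex to the endoplasmic reticulum, while UVRAG takes its place in the complex on endosomes. ATG14 was at 13.8 ± 0.471 CPM in spermatogonia, 15.8 ± 2.48 in spermatocytes and 5.94 ± 0.207 in round spermatids, not called between the early stages (log2 fold change 0.20 ± 0.133, adjusted p = 0.201) and lower afterwards (log2 fold change -1.41 ± 0.137, adjusted p = 3.7e-06). UVRAG was at 19.8 ± 0.385 CPM in spermatogonia, 39.9 ± 3.19 in spermatocytes and 27.8 ± 4.36 in round spermatids, with a rise (log2 fold change 1.01 ± 0.133, adjusted p = 6.71e-05) and a smaller fall (log2 fold change -0.52 ± 0.132, adjusted p = 0.00404) that was not called without normalization factors (adjusted p = 0.555). UVRAG stayed above spermatogonia in round spermatids (log2 fold change 0.49 ± 0.132, adjusted p = 0.00596), but on TPM that difference stood at -0.12 and -0.13 and was not called. AMBRA1, a binding partner of BECN1, was at 22.5 ± 1.16 CPM in spermatogonia, 20.2 ± 2.11 in spermatocytes and 20.0 ± 1.09 in round spermatids and was called in no comparison as reported, though in 3 other settings between the early stages and in 2 between round spermatids and spermatogonia, both TPM scales among each (adjusted p 0.00538 to 0.845 over the 19 settings; adjusted p 0.0176 to 0.512 over the 19 settings). Its change into round spermatids, -0.02 (adjusted p = 0.906), turned to 0.45 without normalization factors, where it was called (adjusted p = 0.0181).

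Of the 6 genes for lipid supply and its lipid sensors, ATG9A, ATG9B, ATG2A and WIPI2 were called higher in spermatogonia than in both later stages. ATG9A (chr15:121254355-121265564), the lipid scramblase carried by small vesicles that seed the membrane, was at 1535, 1569 and 1572 CPM in spermatogonia, 585, 672 and 708 in spermatocytes, and 280.2, 448 and 289 in round spermatids. The stages did not overlap, and ATG9A fell by 1.25 and then by 0.95 on the log2 scale, to 4.596-fold lower in round spermatids than in spermatogonia (log2 fold change -2.20 ± 0.181, adjusted p = 1.35e-06). Within round spermatids replicate 2 lay well above the other two. ATG9B, its paralog, fell over the same span (log2 fold change -1.82 ± 0.228, adjusted p = 3.05e-05) from 14.4 ± 1.02 to 4.09 ± 0.859 CPM, and made up 1.32 ± 0.0920% of the TPM of the ATG9 pair in spermatogonia and 1.74 ± 0.108% in round spermatids. ATG2A, which moves lipid from the endoplasmic reticulum into the growing membrane, was at 98.4, 101 and 102 CPM in spermatogonia, 35.7, 46.3 and 41.7 in spermatocytes, and 17.6, 26.6 and 18.8 in round spermatids. Again each stage lay below the one before, 4.79-fold from first to last (log2 fold change -2.26 ± 0.168, adjusted p = 6.65e-07). Its paralog ATG2B went the other way in the first step only, at 19.2 ± 0.639 CPM in spermatogonia, 29.5 ± 5.83 in spermatocytes and 21.2 ± 1.34 in round spermatids. Its rise (log2 fold change 0.62 ± 0.143, adjusted p = 0.00278) and later fall (log2 fold change -0.48 ± 0.143, adjusted p = 0.0105) were each lost in 4 of the 19 settings including both TPM scales (adjusted p up to 0.804 and 0.896). From first to last stage ATG2B was not called (log2 fold change 0.14 ± 0.143, adjusted p = 0.38). ATG2B's share of the pair's TPM went from 21.8 ± 0.261% in spermatogonia to 50.8 ± 5.62% in spermatocytes and 59.8 ± 5.75% in round spermatids. The second fall was not called without normalization factors for ATG9A (adjusted p = 0.0796), ATG2A (0.0503) and ATG9B (0.198), while all other settings kept it. The WIPI proteins read phosphatidylinositol 3-phosphate. WIPI2, which recruits ATG16L1, was at 121 ± 3.22 CPM in spermatogonia, 42.0 ± 8.52 in spermatocytes and 47.8 ± 13.1 in round spermatids, fell into spermatocytes (log2 fold change -1.53 ± 0.200, adjusted p = 6.38e-05) and was not called after them (log2 fold change 0.19 ± 0.197, adjusted p = 0.399). WIPI1 was called in no comparison as reported, at 10.6 ± 0.159 CPM in spermatogonia, 11.6 ± 2.59 in spermatocytes and 9.81 ± 1.09 in round spermatids, but without spermatocytes 4 it was called higher in spermatocytes than in spermatogonia (0.30, adjusted p = 0.0451) and lower in round spermatids than in spermatocytes (-0.42, adjusted p = 0.00985). On both TPM scales it was called lower in round spermatids than in spermatogonia (adjusted p 0.0395 to 0.878 over the 19 settings). In the first pair of comparisons WIPI1's adjusted p otherwise reached 0.98 and 0.538.

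The conjugation genes did not move together. ATG12, the ubiquitin-like protein joined to ATG5, was at 26.1, 26.7 and 26.8 CPM in spermatogonia, 71.0, 77.6 and 63.5 in spermatocytes, and 22.4, 17.9 and 20.2 in round spermatids. Spermatocytes lay far above the other stages, 2.66-fold over spermatogonia (log2 fold change 1.41 ± 0.121, adjusted p = 4.18e-06) and 3.51-fold over round spermatids (log2 fold change -1.81 ± 0.123, adjusted p = 2.43e-07). ATG12 overlaps AP3S1. ATG3, the E2-like enzyme that hands LC3 to its lipid, was at 64.6 ± 0.818 CPM in spermatogonia, 133 ± 10.8 in spermatocytes and 78.5 ± 7.31 in round spermatids, with a rise (log2 fold change 1.04 ± 0.108, adjusted p = 1.38e-05) and a fall (log2 fold change -0.76 ± 0.107, adjusted p = 7.31e-05). ATG3's small excess in round spermatids over spermatogonia (log2 fold change 0.28 ± 0.107, adjusted p = 0.0322) was lost without any 1 spermatogonia library and without round spermatids 1 or 3 (adjusted p 0.00418 to 0.41), and turned to -0.33 on TPM. ATG7, the E1-like enzyme that serves both conjugation systems, fell in both steps, at 15.4 ± 0.704 CPM in spermatogonia, 10.5 ± 1.19 in spermatocytes and 6.23 ± 0.428 in round spermatids (log2 fold change -0.55 ± 0.127, adjusted p = 0.00254, then log2 fold change -0.75 ± 0.128, adjusted p = 0.000296). The first step was lost with no filter and without the 50 most abundant genes (up to 0.0759), the second without normalization factors (0.102). ATG10, the E2-like enzyme for ATG12, was at 3.82 ± 0.0608 CPM in spermatogonia, 2.81 ± 0.486 in spermatocytes and 1.04 ± 0.0709 in round spermatids. Its large step was the second (log2 fold change -1.44 ± 0.179, adjusted p = 2.56e-05), since the first (log2 fold change -0.44 ± 0.167, adjusted p = 0.0341) was lost in 12 of the 19 settings, among them those without any 1 spermatogonia library or without spermatocytes 3 or 4. ATG5 was at 20.1 ± 0.336 CPM in spermatogonia, 14.7 ± 0.862 in spermatocytes and 18.2 ± 0.856 in round spermatids, and its fall (log2 fold change -0.45 ± 0.105, adjusted p = 0.00277) and return (log2 fold change 0.31 ± 0.105, adjusted p = 0.0185) were lost in 4 and 9 settings, among the latter the one without spermatocytes 2 (adjusted p = 0.0501, in a range from 0.00061 to 0.456). ATG16L1, which places the conjugate on the membrane, was called in no comparison as reported, at 16.9 ± 0.867 CPM in spermatogonia, 22.3 ± 4.75 in spermatocytes and 23.6 ± 6.38 in round spermatids, but in 7 other settings in spermatocytes against spermatogonia, 8 in round spermatids against spermatogonia and 1 between the later stages. Without round spermatids 2 it was called higher in spermatocytes (0.41, adjusted p = 0.0344) and in round spermatids (0.69, adjusted p = 0.00403) than in spermatogonia, and without spermatocytes 3 likewise (0.57, adjusted p = 0.032, and 0.48, adjusted p = 0.0392). Over the 19 settings ATG16L1's adjusted p reached 0.98 and 0.488 in these comparisons. ATG16L2, its paralog, was scarce at 2.43 ± 0.269 CPM in spermatogonia, 0.920 ± 0.169 in spermatocytes and 2.38 ± 0.276 in round spermatids, with a fall (log2 fold change -1.40 ± 0.202, adjusted p = 0.000123) and a rise (log2 fold change 1.37 ± 0.203, adjusted p = 9.98e-05) of like size.

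The ATG4 proteases trim new LC3 and GABARAP proteins and remove them from finished membranes, and their mix turned over from stage to stage. ATG4B, held to be the main protease for LC3, was at 48.0, 46.7 and 47.9 CPM in spermatogonia, 14.3, 16.8 and 11.8 in spermatocytes, and 10.2, 15.2 and 9.11 in round spermatids. Spermatogonia lay far above both later stages, which overlapped (log2 fold change -1.73 ± 0.198, adjusted p = 2.57e-05, then log2 fold change -0.32 ± 0.195, adjusted p = 0.161). Without round spermatids 2 the second step was called as well (-0.57, adjusted p = 0.0058; adjusted p 0.0058 to 0.497 over the 19 settings). ATG4D was at 39.3, 39.3 and 40.5 CPM in spermatogonia, 12.3, 11.6 and 9.40 in spermatocytes, and 9.70, 13.5 and 9.56 in round spermatids. It too fell into spermatocytes (log2 fold change -1.84 ± 0.163, adjusted p = 5.03e-06) and did not differ by the test after them (log2 fold change -0.03 ± 0.160, adjusted p = 0.888). ATG4C went the opposite way at 5.11, 5.29 and 4.50 CPM in spermatogonia, 13.5, 16.1 and 10.5 in spermatocytes, and 3.76, 3.34 and 4.09 in round spermatids. All spermatocyte libraries lay above the rest, 2.69-fold over spermatogonia (log2 fold change 1.43 ± 0.175, adjusted p = 4.04e-05) and 3.58-fold over round spermatids (log2 fold change -1.84 ± 0.178, adjusted p = 3.64e-06). ATG4C just missed the call between round spermatids and spermatogonia (log2 fold change -0.41 ± 0.176, adjusted p = 0.0505), and was called in 6 other settings, among them both TPM scales, the fit of only the compared stages, and those without spermatocytes 3 (adjusted p = 0.0264) or 4 (0.0154), with adjusted p 0.00149 to 0.162 over the 19 settings. ATG4A, on the X chromosome, was the scarcest at 0.880, 0.906 and 0.905 CPM in spermatogonia, 0.510, 0.415 and 0.593 in spermatocytes, and 3.40, 1.46 and 4.04 in round spermatids. Its round spermatid libraries lay above all others, and it rose 5.82-fold from spermatocytes (log2 fold change 2.54 ± 0.364, adjusted p = 7.78e-05) and 3.30-fold over spermatogonia (log2 fold change 1.72 ± 0.335, adjusted p = 0.000758). Its lower level in spermatocytes than in spermatogonia was not called (log2 fold change -0.82 ± 0.374, adjusted p = 0.0699). Without round spermatids 2, which lay furthest from the others of its stage, it was (-0.82, adjusted p = 0.00427; adjusted p 0.00209 to 0.184 over the 19 settings). Each ATG4 gene overlaps another annotated gene: ATG4A overlaps PSMD10, ATG4B LOC110256926, ATG4C the pseudogene LOC110261218 and ATG4D KRI1. As shares of the family's TPM, ATG4B and ATG4D made up 52.8 ± 0.456% and 37.8 ± 0.582% in spermatogonia, ATG4C went from 8.70 ± 0.773% there to 46.5 ± 1.78% in spermatocytes and 20.9 ± 4.36% in round spermatids, and ATG4A went from 0.673 ± 0.0164% to 0.784 ± 0.277% and 7.27 ± 3.80%.

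None of the 5 LC3 and GABARAP genes rose into spermatocytes and 3 fell (60%), against 29.3% and 44% of all genes tested. Into round spermatids 3 rose (60%) and none was called lower, against 42.7% and 36.4% of all genes tested. GABARAPL1 (chr5:61758127-61767427), a GABARAP relative that acts late in autophagosome formation, was at 35.4, 34.2 and 36.2 CPM in spermatogonia, 15.7, 10.4 and 21.1 in spermatocytes, and 126, 137 and 121 in round spermatids. The stages did not overlap, and spermatocytes were the low point (log2 fold change -1.16 ± 0.207, adjusted p = 0.000523). Its 8.12-fold rise into round spermatids (log2 fold change 3.02 ± 0.219, adjusted p = 4.06e-07) was the largest of the 39 genes, and round spermatids also passed spermatogonia 3.63-fold (log2 fold change 1.86 ± 0.209, adjusted p = 1.34e-05). MAP1LC3A (chr17:37957830-37959505), one of the LC3 proteins, had the same order at 40.4, 39.5 and 39.9 CPM in spermatogonia, 13.4, 10.7 and 11.54 in spermatocytes, and 63.6, 81.0 and 58.9 in round spermatids. MAP1LC3A fell 3.36-fold (log2 fold change -1.75 ± 0.145, adjusted p = 3.36e-06) and rose 5.71-fold (log2 fold change 2.51 ± 0.148, adjusted p = 9.12e-08). MAP1LC3B, the LC3 protein most used as a marker of autophagosomes, was at 36.0, 35.3 and 35.2 CPM in spermatogonia, 36.4, 38.96 and 25.2 in spermatocytes, and 59.5, 70.0 and 60.5 in round spermatids. Its early stages overlapped (log2 fold change -0.08 ± 0.156, adjusted p = 0.647), and round spermatids lay above both (log2 fold change 0.92 ± 0.157, adjusted p = 0.000289). The excess over spermatogonia was called for MAP1LC3A (log2 fold change 0.76 ± 0.140, adjusted p = 0.000499) and MAP1LC3B (log2 fold change 0.84 ± 0.156, adjusted p = 0.000579), but on TPM for neither, where adjusted p reached 0.659 and 0.44. Summed Sertoli and myoid markers were highest in round spermatids as well, at 1100.1 to 1188 and 4808 to 6122 CPM, and their part in these rises was not tested.

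GABARAP itself, the most abundant of the family per length, was at 330.4, 318 and 324 CPM in spermatogonia, 297, 254 and 271 in spermatocytes, and 258, 252 and 229.5 in round spermatids. Spermatogonia were slightly higher than spermatocytes (log2 fold change -0.24 ± 0.0991, adjusted p = 0.0456), a call lost in 13 of the 19 settings, among them those without any 1 spermatogonia library, without spermatocytes 3 or 4 or without round spermatids 1 (adjusted p 0.000764 to 0.983). Between the later stages GABARAP was not called (log2 fold change -0.15 ± 0.0991, adjusted p = 0.185). It was called lower in round spermatids in 4 settings (RLE factors, no filter, DESeq2 and without the 50 most abundant genes). Without normalization factors it turned to 0.31 and was called higher, and values ran from -0.35 to 0.31 over the 19 settings. Round spermatids were lower than spermatogonia (log2 fold change -0.39 ± 0.0992, adjusted p = 0.00394) except with spermatogonia summed (adjusted p = 0.0588). GABARAPL2 (GATE-16) was at 19.7, 19.7 and 19.2 CPM in spermatogonia, 19.6, 16.6 and 14.7 in spermatocytes, and 21.0, 18.6 and 18.5 in round spermatids and was called in no comparison as reported. In spermatocytes against spermatogonia it was called lower in 4 settings, namely without normalization factors, on both TPM scales and without spermatocytes 2 (-0.32, adjusted p = 0.0454; adjusted p 0.00232 to 0.996 over the 19 settings). It was also called higher in round spermatids than in spermatocytes without normalization factors (adjusted p 0.00169 to 0.947 over the 19 settings), and lower in round spermatids than in spermatogonia on both TPM scales (adjusted p 0.0127 to 0.988 over the 19 settings). Of the family's summed TPM, GABARAP held 78.1 ± 0.164% in spermatogonia, 83.0 ± 1.14% in spermatocytes and 59.0 ± 1.85% in round spermatids. GABARAPL1 went from 3.74 ± 0.0854% and 2.11 ± 0.726% to 13.5 ± 0.407%, and MAP1LC3A from 7.74 ± 0.0431% and 2.89 ± 0.124% to 13.01 ± 1.53%. These shares do not depend on library scaling. Near-identical copies of these small genes elsewhere in the genome could take part of their reads, and how such reads were counted is not given in the sources used here.

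**Figure D4:**
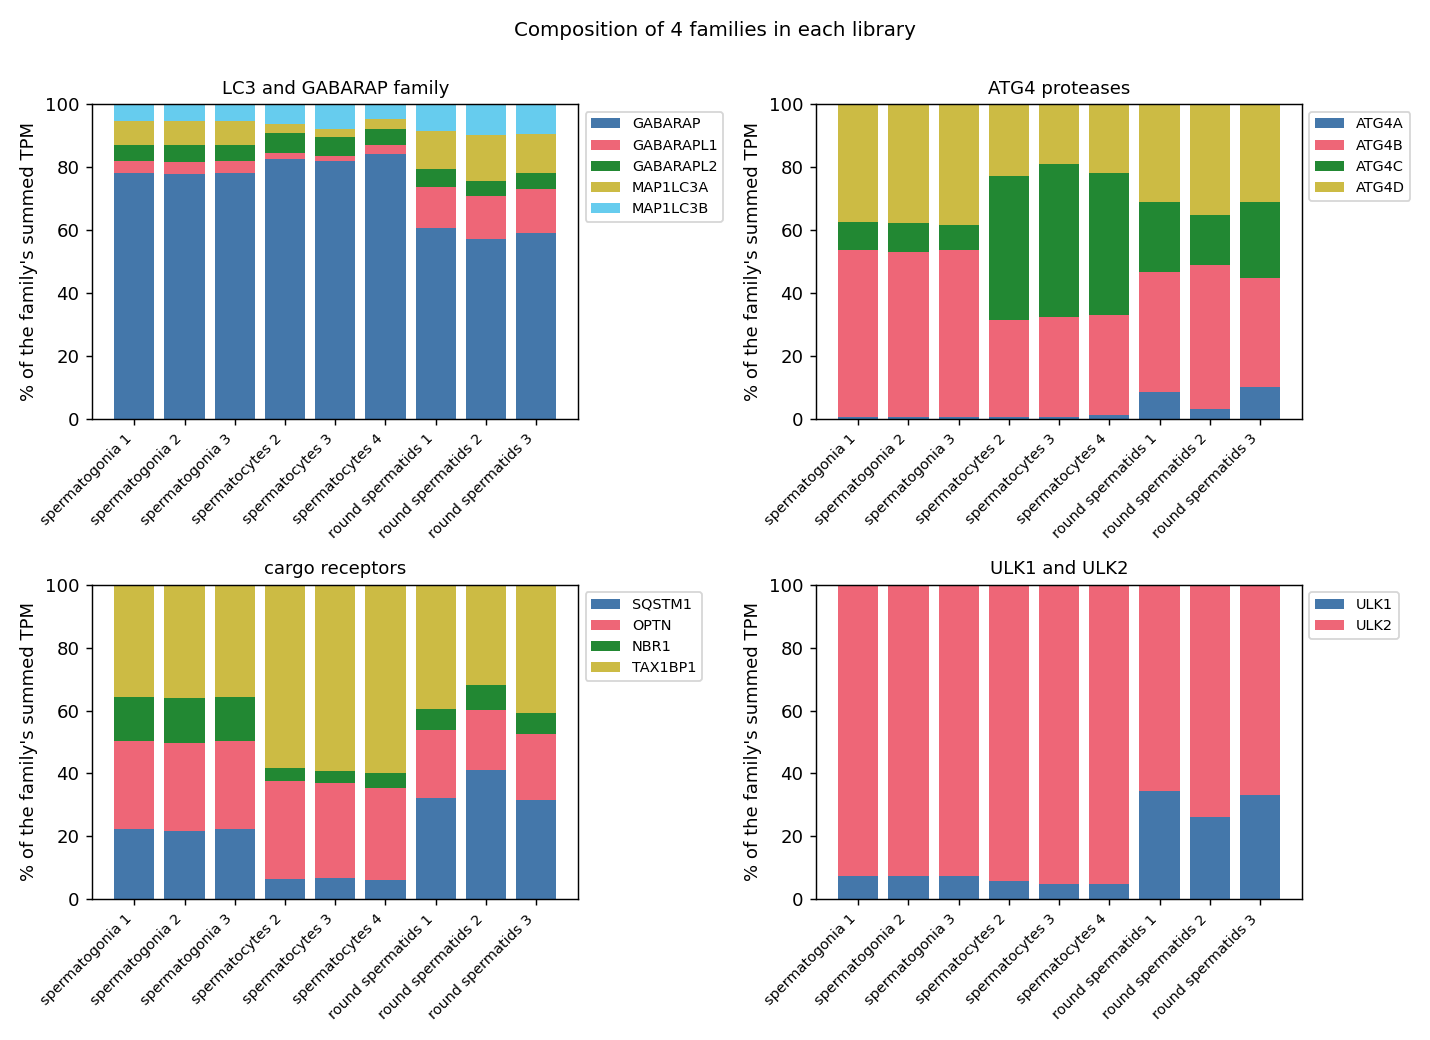
Share (%) of each gene in the summed TPM of its family, in stacked bars for each of the 9 libraries, for the LC3 and GABARAP family, the ATG4 proteases, the cargo receptors, and ULK1 with ULK2. ATG4C takes the largest share of its family in the spermatocyte libraries, and SQSTM1 and ULK1 take larger shares in round spermatids than in the earlier stages.

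The 4 cargo receptors fell into opposed patterns. TAX1BP1 (chr18:44827908-44910265), a receptor for ubiquitinated cargo, was at 330.2, 342 and 334 CPM in spermatogonia, 1324, 1411 and 1376 in spermatocytes, and 448, 374 and 471 in round spermatids. Spermatocytes stood 4.09-fold over spermatogonia (log2 fold change 2.03 ± 0.113, adjusted p = 5.81e-07) and round spermatids 3.18-fold below spermatocytes (log2 fold change -1.67 ± 0.112, adjusted p = 2.22e-07), with no overlap in either step. TAX1BP1's remaining excess in round spermatids over spermatogonia (log2 fold change 0.36 ± 0.109, adjusted p = 0.0108) was lost without spermatogonia 1 (adjusted p = 0.0501) and turned to -0.26 on TPM, within a range of adjusted p from 0.00012 to 0.275. OPTN, known for clearing damaged mitochondria, was at 149.8, 152 and 152 CPM in spermatogonia, 409.8, 418 and 390.4 in spermatocytes, and 142, 129.8 and 139.8 in round spermatids. Again only the spermatocyte libraries were high (log2 fold change 1.42 ± 0.0907, adjusted p = 9.61e-07, then log2 fold change -1.57 ± 0.0911, adjusted p = 8.37e-08), and round spermatids against spermatogonia was not called (log2 fold change -0.14 ± 0.0890, adjusted p = 0.165).

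SQSTM1 (p62, chr2:78752768-78763998), a receptor that is itself degraded by autophagy, went the other way at 215, 213 and 216 CPM in spermatogonia, 151, 168 and 143 in spermatocytes, and 378, 499 and 379 in round spermatids. Spermatocytes were lowest and round spermatids highest, with no overlap and with round spermatids 2 above the other two. SQSTM1's fall (log2 fold change -0.48 ± 0.127, adjusted p = 0.00578) was lost in 5 of the 19 settings (adjusted p 0.000239 to 0.177). Its 2.72-fold rise into round spermatids (log2 fold change 1.44 ± 0.129, adjusted p = 1.92e-06) held in all 19, and its excess over spermatogonia (log2 fold change 0.96 ± 0.127, adjusted p = 4.65e-05) in all but the TPM scales. The part of the other cell types, whose markers rose in the same comparisons, was not tested. SQSTM1 overlaps MRNIP. NBR1, which shares the domain plan of SQSTM1, was at 236, 244 and 234 CPM in spermatogonia, 166, 168 and 203 in spermatocytes, and 137, 166 and 143 in round spermatids. NBR1 fell from spermatogonia to spermatocytes (log2 fold change -0.41 ± 0.117, adjusted p = 0.00899), a call lost in 6 settings. The step into round spermatids just missed the call (log2 fold change -0.27 ± 0.116, adjusted p = 0.0518). Its libraries did not overlap, but round spermatids 2 (165.6 CPM) lay only just below spermatocytes 2 (166.1 CPM). That second step was called without spermatocytes 2 (adjusted p = 0.0421) or 3 (0.0416) or round spermatids 2 (0.0072), with adjusted p 0.006 to 0.318 over the 19 settings. Per length, TAX1BP1 was 1.59 to 1.66 times SQSTM1 in spermatogonia, 8.71 to 9.96 times in spermatocytes and 0.776 to 1.29 times in round spermatids. Of the 4 receptors' summed TPM, SQSTM1 held 22.2 ± 0.354%, 6.40 ± 0.389% and 35.0 ± 5.33% in that order of stages, TAX1BP1 35.8 ± 0.281%, 59.1 ± 0.734% and 37.4 ± 4.77%, and OPTN 27.9 ± 0.155%, 30.3 ± 0.945% and 20.5 ± 1.26%.

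Genes around the core were read from 4 further lists, which were drawn up with results of these data already known. Upstream regulators cover the mTORC1 and AMPK kinases and the transcription factors that drive lysosome and autophagy genes, and 24 of 27 listed genes were found. Into spermatocytes 9 rose (37.5%) and 9 fell (37.5%), against 29.3% and 44% of all genes tested. The AMPK catalytic subunits PRKAA1 (2.19) and PRKAA2 (2.13) were the largest rises on the log2 scale. The transcription factor TFEB (-2.37) and the mTORC1 subunit RPTOR (-1.89) were the largest falls. Into round spermatids 11 rose (45.8%) and 10 fell (41.7%), against 42.7% and 36.4% of all genes tested. TFEB (5.93) and the transcription factor FOXO1 (3.37) led the rises, and the kinase MTOR (-2.40) and the AMPK subunit PRKAG1 (-2.19) the falls. Against spermatogonia 11 rose (45.8%) and 8 fell (33.3%), where 39.5% and 39.7% of all genes tested did. RHEB (3.64), the activator of mTORC1, and TFEB (3.56) stood at one end and MTOR (-2.11) and its inhibitor TSC2 (-1.86) at the other. TFEB, a master regulator of lysosome genes, was at 0.836 ± 0.123 CPM in spermatogonia, 0.159 ± 0.0630 in spermatocytes and 9.87 ± 2.45 in round spermatids. MTOR, the kinase that holds autophagy back, was at 419.9 ± 17.5 CPM in spermatogonia, 514 ± 96.5 in spermatocytes and 97.4 ± 6.71 in round spermatids.

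Genes for membrane sources, lipid and fusion (26 of 28 found) gave 9 rises (34.6%) and 9 falls (34.6%) into spermatocytes. All genes tested gave 29.3% and 44%. Then 7 rose (26.9%) and 16 fell (61.5%) into round spermatids, against 42.7% and 36.4% of all genes tested. The largest rises into spermatocytes were EVA1A (2.92) and SH3GLB1 (1.69), and the largest falls WDR45 (-2.54), a relative of the WIPI proteins, and ZFYVE1 (-1.34). WDR45 (4.95) then rose most into round spermatids with the late endosome GTPase RAB7A (1.62), and SH3GLB1 (-1.79) and VPS41 (-1.54), a subunit of the HOPS tether, fell most. Against spermatogonia 7 rose (26.9%) and 14 fell (53.8%), where 39.5% and 39.7% of all genes tested did. EVA1A (4.51) and RAB7A (3.15) led the rises, and TECPR1 (-1.95) and VPS41 (-1.87) the falls. Other cargo receptors and mitophagy genes (19 of 23 found) gave 8 rises (42.1%) and 9 falls (47.4%) into spermatocytes. All genes tested gave 29.3% and 44%. The next step gave 6 rises (31.6%) and 9 falls (47.4%), against 42.7% and 36.4% of all genes tested. Against spermatogonia 7 rose (36.8%) and 6 fell (31.6%), where 39.5% and 39.7% of all genes tested did. SEC62 (2.53), a receptor for endoplasmic reticulum, and the mitophagy receptor BNIP3L (1.97) rose most into spermatocytes, while TOLLIP (-1.72) and TEX264 (-1.49) fell most. In the next step the largest changes were those of FUNDC2 (2.52) and the endoplasmic reticulum receptor RETREG1 (2.42) upward and of CALCOCO1 (-1.48) and SEC62 (-1.41) downward. Against spermatogonia TBK1 (2.07), a kinase that phosphorylates OPTN, and BNIP3L (1.61) rose most, and PINK1 (-1.61), a kinase that marks damaged mitochondria, was among those that fell.

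Lysosome genes (35 of 38 found) gave 6 rises (17.1%) and 23 falls (65.7%) into spermatocytes, against 29.3% and 44% of all genes tested. Their median was -1.43 against -0.32 for all genes. Into round spermatids 23 rose (65.7%) and 9 fell (25.7%), against 42.7% and 36.4% of all genes tested. The median there was 1.72 against 0.19. Against spermatogonia 18 rose (51.4%) and 14 fell (40%), where 39.5% and 39.7% of all genes tested did. The median was 0.36 against 0.00. Into spermatocytes the proton pump genes ATP6V1C1 (1.68) and ATP6AP2 (1.06) rose most, and the pump subunit ATP6AP1 (-3.04) was among those that fell. Into round spermatids the beta-galactosidase gene GLB1 (7.90) rose, and the pump subunit ATP6V1A (-3.06) fell most. GLB1 (5.22) and SCARB2 (4.96) led the rises against spermatogonia, and ATP6V1A (-2.69) and the protease CTSF (-1.88) the falls. GLB1 stood at 0.612 ± 0.0653 CPM in spermatogonia, 0.0935 ± 0.0190 in spermatocytes and 22.9 ± 3.10 in round spermatids, so its change rests on few reads in spermatocytes. ATP6V1A stood at 208 ± 5.41 CPM in spermatogonia, 268 ± 48.3 in spermatocytes and 32.2 ± 6.97 in round spermatids. Summed lysosome transcripts were at 3090.4 to 3131 CPM in spermatogonia, 2676 to 3168 in spermatocytes and 2555 to 2612 in round spermatids. The lysosome sum was thus not highest in round spermatids, though more of its genes rose than fell into that stage. Sertoli, myoid, endothelial and leukocyte marker sums were highest in round spermatids, at 1100.1 to 1188, 4808 to 6122, 166 to 189.6 and 27.5 to 35.3 CPM. Leydig sums were 295 to 313 CPM in spermatogonia and 1.79 to 2.78 in spermatocytes, and Sertoli sums 250.3 to 258 and 36.5 to 56.4. Their part in the lysosome changes was not tested.

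**Figure D5:**
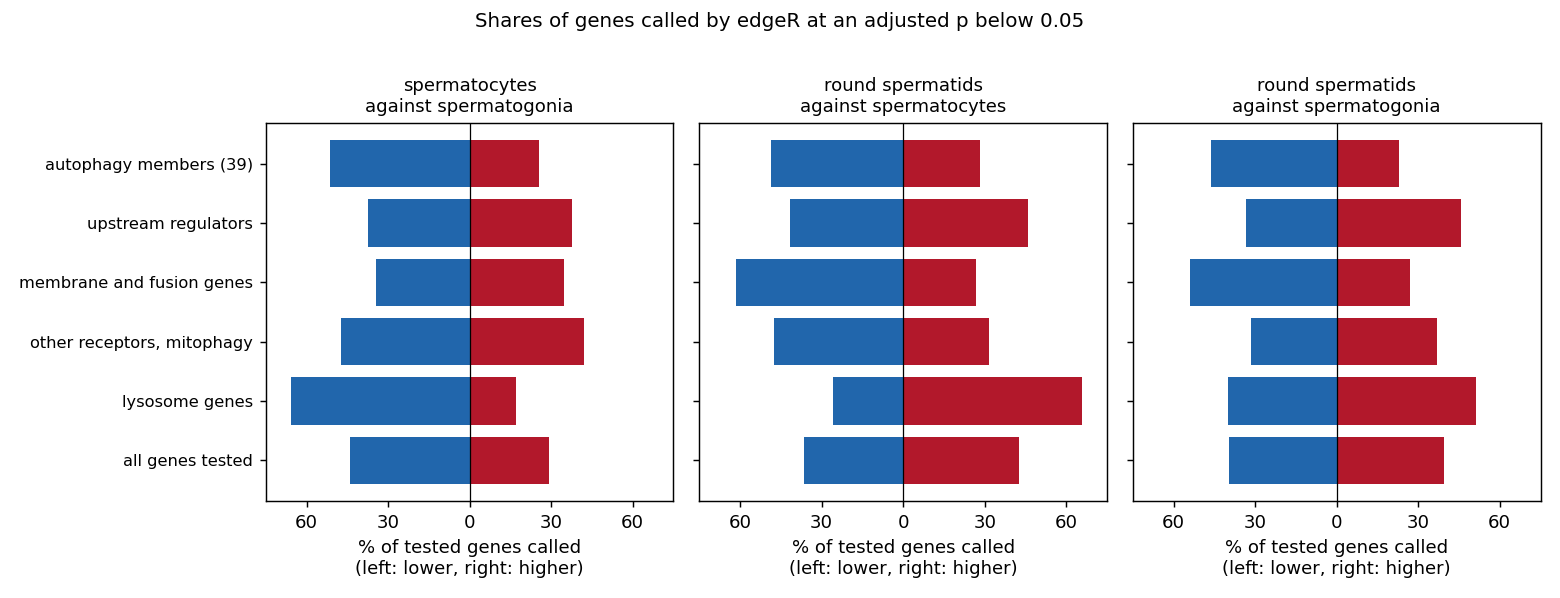
Share (%) of tested genes called lower (blue, to the left) and higher (red, to the right) by edgeR in each comparison, for the 39 autophagy genes, the 4 further lists and all genes tested. Lysosome genes go from 65.7% lower in the first comparison to 65.7% higher in the second. The 39 autophagy genes have more lower than higher calls in all 3 in the fit shown, but not under every other setting.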

How the data were processed

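Paired reads of total RNA came from a directional library kit on an Illumina sequencer, per the labels' protocols. The submitters' processing notes name the build Sscrofa11.1 and bcl2fastq. The aligner, quantifier, annotation and strand setting were not given in the sources used here. Estimated counts per gene and TPM were deposited by the authors as 2 tables, with a column for each library. The 6 library columns that match none of the 9 labelled samples were not used. Of 22342 gene identifiers, 14749 had a symbol. Locations are those of RefSeq genes on Sscrofa11.1.

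Estimated counts were rounded, filtered with filterByExpr, scaled with TMM and fitted over all 9 libraries in R 4.3.3 with the quasi-likelihood test of edgeR 4.0.16. The standard error is the log2 fold change divided by the square root of F. Shares within families were taken from TPM. The fit was also run on simulated counts, with rises and falls planted in equal number in a small part of the genes and 1 common spread. That cannot test the scaling of these data, where most genes were called. Alternatives used DESeq2 1.42.0, limma 3.58.1 on log2(TPM + 1) and log2(TPM + 0.1), RLE or no size factors, no filter, only the compared stages, each library left out, spermatogonia summed to 1 sample and a replicate block. Scaling without the 50 most abundant genes was chosen after seeing the data. Together they make 19 settings.

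The gene set and the further lists were chosen with earlier results of these data known. Values in every library were given for the LC3, GABARAP, ATG4 and ULK genes, the cargo receptors, BECN1, PIK3C3 and PIK3R4, and for the 5 largest rises and falls called in each comparison; of the further lists, at most 2 rises and 2 falls per comparison were named, and some are not reported here. Counting error weighs most on the scarcest genes, such as ATG4A in spermatocytes and ATG10 in round spermatids. Round spermatids 2 was the shallowest library, but its median chi-square of 20.5 and 19.1 against replicates 1 and 3 was far above the 0.455 of counting error.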

Additional observations from a re-analysis of the deposited data

How the results depend on the processing

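Falls into spermatocytes went from 20 to 12 with no filter (with 12 rises) and to 12 without the 50 most abundant genes (with 13 rises). They went to 26 without normalization factors and on both TPM scales (with 8, 7 and 7 rises). Rises of round spermatids over spermatogonia went from 9 to 2 on log2(TPM + 1), 2 on log2(TPM + 0.1) and 5 with spermatogonia summed. The median over all genes ranged from -0.74 to -0.09 in the first comparison, from -0.01 to 0.64 in the second and from -0.58 to 0.07 in the third, and the share of higher among all calls from 22.58 to 48.44% (39.98% as reported), 49.47 to 65.66% (53.96%) and 34.7 to 52.11% (49.87%). Reversed values were, between spermatocytes and spermatogonia, ATG13 at -0.39 without normalization factors, -0.48 on log2(TPM + 1) and -0.49 on log2(TPM + 0.1); between round spermatids and spermatocytes without normalization factors, AMBRA1 at 0.45 and GABARAP at 0.31; and between round spermatids and spermatogonia on log2(TPM + 1) and log2(TPM + 0.1), ATG3 at -0.33 and -0.33, RB1CC1 at -0.49 and -0.50, TAX1BP1 at -0.26 and -0.26, and UVRAG at -0.12 and -0.13. The cause was not tested. Leaving out 1 library gave 10 to 11 rises and 17 to 21 falls in the first comparison, 9 to 11 and 19 to 21 in the second, and 7 to 10 and 18 to 19 in the third.

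The fit with the replicate block gave 10 rises and 18 falls, 11 and 19, and 9 and 19. Same-numbered libraries did not deviate together (r from -0.044 to 0.026), and 1 of 3 round spermatid libraries correlated best with the spermatogonia library of its own number. This check cannot decide on pairing, since the spermatogonia libraries differed little from each other. The labels name no animal, and the numbers were not taken to pair the samples. Under the block WIPI1 was called lower in round spermatids than in spermatocytes (-0.40, adjusted p = 0.0414 by edgeR) and ATG4C lower than in spermatogonia (-0.42, 0.0358), and calls were lost for ATG10 (0.158) and GABARAP (0.159) between the early stages and ATG2B (0.0779) between the later ones. Values under 1 CPM, such as ATG4A in spermatocytes, are limited by depth.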

Other observations

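ATG4A was the only X-linked gene of the 39, and its course was set beside that of the other X-linked genes of the lists after its values had been seen. With WDR45, TFE3, RRAGB, FUNDC1, FUNDC2, ATP6AP1, ATP6AP2, GLA and LAMP2 there were 10 X-linked genes. Between spermatocytes and spermatogonia 2 of them were called higher and 5 lower by edgeR, between round spermatids and spermatocytes 9 were called higher and 1 was not called, and between round spermatids and spermatogonia 8 were called higher and 2 were not called. The rises from spermatocytes into round spermatids included WDR45 (4.95 on the log2 scale), ATP6AP1 (2.76), ATG4A (2.54) and FUNDC2 (2.52), and ATP6AP2 (0.26) was the one not called. Of all 415 X-linked genes tested, 10.4% were called higher and 56.9% lower in the first comparison, 81% and 2.65% in the second, and 66.7% and 11.3% in the third.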
